A study of Zea mays with 12 samples.

Results

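The genes most raised in tml1;tml2 maize shoot apices are the 100 genes with the largest excess of transcript in the mutants over the wild types, among 39324 gene IDs measured. A gene entered the ranking if all 3 mutant values lay above all 3 wild-type values and the mutant mean was at least 2 TPM (transcript abundance corrected for length and scaled to the same total in every sample). Genes were ranked by the log2 ratio of the mutant mean plus 0.5 TPM to the wild-type mean plus 0.5 TPM. Of 20124 genes with a mutant mean of at least 2 TPM, 3385 (16.8%) had no overlap between genotypes in this direction, and the first 100 of these, 2.95%, are the members. Because the levels in mutant and wild type chose the members, these levels are given below as a description without a test.

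RNA was sequenced from apices of inbred line B104, dissected from seedlings after 7 days of germination. An apex held the shoot meristem and primordia from plastochron 0 up to plastochron 5 with their sheath, while root, embryo and coleoptile were cut away. The mutants carried homozygous CRISPR/Cas9 loss-of-function alleles of both TOO MANY LATERALS genes, tml1 and tml2, were chosen by genotyping chips of the seed, and segregated independently of the editing transgene. The wild types were segregants of the edited material without the mutant genotype, in the same B104 background, and were genotyped the same way. There were 3 mutant samples and 3 wild-type samples, numbered 2, 3 and 4 in each genotype, each read in 2 sequencing runs as technical replicates, per the labels. Values of both runs were combined, so n counts 3 samples per genotype. The labels do not settle if a sample is a single apex or a pool, and give neither the number of edited lines nor the sequence of the alleles.

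The TML genes encode zinc finger transcription factors of the WIP family. In a grass leaf, parallel veins of several ranks form in sequence within the young primordia, with the large lateral veins set out before the smaller intermediate ones, and the TML genes are known for their part in fixing that rank. The apex therefore holds the stage at which veins are specified, together with meristem, sheath and other leaf tissue. In such bulk tissue, more cells of a type and more RNA per cell cannot be told apart.

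The deposited table lists version 4 gene model IDs without gene names. None of the 39324 IDs, a match of 0, occurs in the RefSeq gene table of assembly Zm-B73-REFERENCE-NAM-5.0, which holds 49888 genes, so the members are named by ID, and what they encode is not given. For the same reason the transcripts of tml1 and tml2 and the markers of the labelled tissue were not analysed here, and each genotype rests on its label. Totals over both runs were 27213052 to 31980536 estimated counts per sample, at which 3 counts equal 0.0938 to 0.110 CPM (counts scaled to library size). This floor covers counting error only.

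The members ranged widely in level. Their mutant means ran from 2.84 to 989 TPM with a median of 19.7 TPM, and their wild-type means from 0 to 109.7 TPM with a median of 1.13 TPM. In the mutants, 24 members averaged at least 100 TPM and 34 averaged under 10 TPM, while in the wild types 48 members averaged under 1 TPM and 22 averaged at least 10 TPM. The log2 ratio ran from 2.52 to 6.74 with a median of 3.07, so all 100 members were at least 4-fold higher, 57 at least 8-fold and 18 at least 16-fold on this scale. The other 3285 genes that met the same conditions had a median of 0.52, and all 20124 genes at this mutant level had a median of 0.15. At the lower edge, the members at ranks 98 to 100, Zm00001d053746, Zm00001d029783 and Zm00001d042382, had log2 ratios of 2.54, 2.53 and 2.52. The next genes, Zm00001d032120, Zm00001d017502 and Zm00001d038382, had 2.52, 2.51 and 2.51, so the list ends in a continuum.

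**Figure D1:**
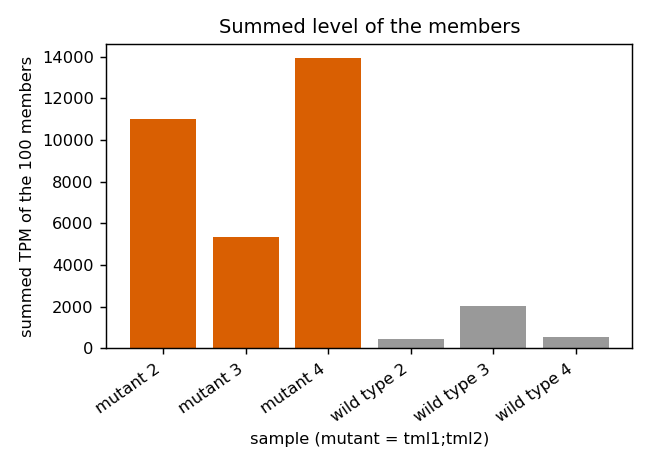
Summed TPM of the 100 members in each of the 6 samples, 1 bar per sample, with mutants (tml1;tml2) in orange and wild types in grey. The mutants sum to 10995, 5333 and 13920 TPM, and wild type 3, at 2015 TPM, stands above the other wild types.

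Added together, the members made up 1.12%, 0.544% and 1.43% of all TPM in mutants 2, 3 and 4, against 0.0455%, 0.206% and 0.0569% in wild types 2, 3 and 4. The lowest mutant sum, 5333 TPM in mutant 3, exceeded the highest wild-type sum, 2015 TPM in wild type 3, a direction that the choice of members fixes. The spread inside each genotype was wide, with mutant 4 highest among mutants and wild type 3 highest among wild types.

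The most raised gene was Zm00001d026413, at 4.26, 14.1 and 382 TPM in mutants 2, 3 and 4, against 0.499, 0.264 and 1.49 TPM in wild types 2, 3 and 4. Its position at the head of the ranking, with a log2 ratio of 6.74, rests on mutant 4, which was 41.5 times the mean of the other mutants, and without each gene's highest mutant the ratio was 2.96. The peak was present in both runs of mutant 4, at 385 and 379 TPM. Zm00001d036125, the second in rank, was at 13.1, 2.42 and 51.4 TPM in mutants 2, 3 and 4, against 0 TPM in every wild type. Zm00001d032821, the third, was at 6.17, 18.1 and 86.5 TPM in the mutants, against 0, 0 and 1.21 TPM in the wild types. In these 3 genes mutant 4 was the highest sample, and all mutants lay above all wild types. Zm00001d022461, at rank 9, was the member of the first 10 least dominated by a single mutant. It was at 324, 100.3 and 224 TPM in mutants 2, 3 and 4, against 4.15, 15.7 and 3.42 TPM in wild types 2, 3 and 4.

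The most abundant was Zm00001d045392, which averaged 989 ± 372 TPM in the mutants and 82.2 ± 109 TPM in the wild types (SD, n = 3 each). Zm00001d017121 followed, at 1185, 455 and 925 TPM in mutants 2, 3 and 4, against 46.2, 193 and 89.2 TPM in wild types 2, 3 and 4. Zm00001d009103 was at 1094, 447 and 845 TPM in the mutants, against 26.6, 287 and 15.4 TPM in the wild types. In each of these genes mutant 2 was highest and mutant 3 lowest among mutants, and wild type 3 came closest to the mutants. Zm00001d012407 was at 817, 158 and 498 TPM in mutants 2, 3 and 4, against 38.5, 58.3 and 63.9 TPM in wild types 2, 3 and 4, so its wild types were closer together. The most abundant members also included Zm00001d010588, Zm00001d028651, Zm00001d044747 and Zm00001d009118, with mutant means of 298 to 458 TPM.

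**Figure D2:**
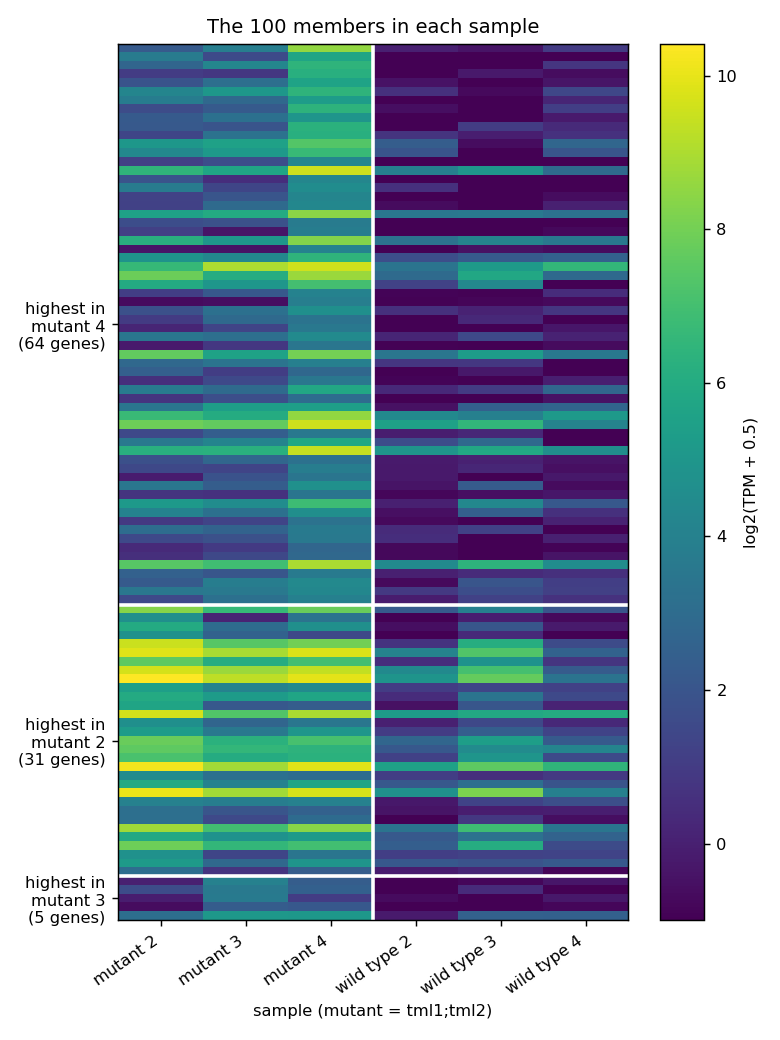
Level of the 100 members, 1 row per gene in rank order within each block, in the 6 samples as log2(TPM + 0.5) by colour, with blocks by the mutant sample in which each gene is highest. Of the members 64 are highest in mutant 4, 31 in mutant 2 and 5 in mutant 3, and in the mutant 2 block many genes are brighter in wild type 3 than in the other wild types.

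The members split by which mutant held their highest value. Mutant 4 was highest in 64 of the 100, mutant 2 in 31 and mutant 3 in 5. Among the other 3285 genes that met the conditions the shares were 66.4% for mutant 4, 21.8% for mutant 2 and 11.9% for mutant 3, and among all 20124 genes at this mutant level they were 43.2%, 31.1% and 25.7%. Mutant 4 thus led in similar shares of the members and of the genes with smaller ratios. Members led by mutant 4 had median levels of 4.25, 7.06 and 23.4 TPM in mutants 2, 3 and 4, against 0.362, 0.418 and 0.538 TPM in wild types 2, 3 and 4. Members led by mutant 2 had median levels of 62.2, 27.6 and 51.7 TPM in the mutants, against 1.67, 9.45 and 2.51 TPM in the wild types. Wild type 3 was the highest wild type in 25 of the 31 members led by mutant 2, and in 27 of the 64 led by mutant 4. The members led by mutant 3 were Zm00001d047845, Zm00001d043258, Zm00001d014606, Zm00001d032240 and Zm00001d038993, named after their values were seen, and mutant 2 was the lowest mutant in all 5.

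A raised level in wild type 3 marked 37 of the members, in which this sample was more than 2 times both other wild types. Wild type 3 was the highest wild type in 54 members, in 67.1% of the other genes that met the conditions and in 53.4% of all genes at this mutant level. A value more than 2 times both others held for 6.09% of all genes at this mutant level and for 3.29% of those other genes. In these 37 members the median levels were 62.2, 23 and 72 TPM in mutants 2, 3 and 4, against 1.11, 9.88 and 1.95 TPM in wild types 2, 3 and 4. The lowest mutant value was under 2 times the value of wild type 3 in 19 of the 37. Their median log2 ratio was 3.09 with all samples and 4.49 without wild type 3, while the other 63 members gave 3.05 and 3.21. The rise in the 37 follows from how they were picked, since leaving out their highest wild type lowers the wild-type mean. Zm00001d009118 shows how narrow the gap could be, at 440, 124 and 331 TPM in mutants 2, 3 and 4, against 9.99, 117 and 10.6 TPM in wild types 2, 3 and 4.

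**Figure D3:**
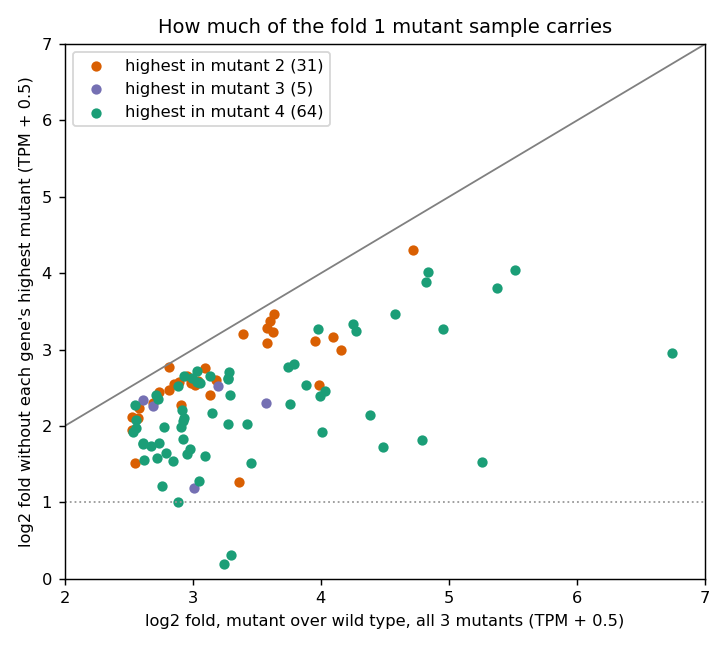
Log2 ratio of mutant to wild type (TPM + 0.5) with all 3 mutants on the x axis and without each gene's own highest mutant on the y axis, 1 point per member, coloured by the highest mutant; the diagonal marks equal values and the dotted line a 2-fold difference. Genes led by mutant 4 lie farthest under the diagonal, and 2 lie clearly under the dotted line.

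How far a value followed genotype rather than a single sample differed among the members. The highest mutant was at least 2 times the mean of the other mutants in 77 of the 100 members, at least 5 times in 33 and at least 10 times in 12. The median of this multiple was 3.39 for the members, 1.25 for the other genes that met the conditions and 1.34 for all genes at this mutant level. The ranking uses means, so 1 high sample lifts a gene in it. Without each gene's highest mutant the median log2 ratio was 2.4, and 70 members remained at least 4-fold higher. Without single samples in turn, the rule chose 56 of the same 100 genes without wild type 3, 60 without mutant 2 and 65 without mutant 4. The 2 that fell under 2-fold without their highest mutant were Zm00001d002897, at 0.19, and Zm00001d038197, at 0.31. Zm00001d002897 was at 0.125, 0.168 and 14.3 TPM in mutants 2, 3 and 4, against 0.0291, 0.0628 and 0.107 TPM in wild types 2, 3 and 4. Zm00001d038197 was at 0.293, 0.244 and 16.3 TPM in the mutants, against 0, 0.222 and 0.139 TPM in the wild types. In both genes only mutant 4 stood apart, and the lowest mutant was 1.17 and 1.1 times the highest wild type. Zm00001d002816, at rank 4, was at 1.57, 1.29 and 72 TPM in mutants 2, 3 and 4, against 0, 0.35 and 0.151 TPM in wild types 2, 3 and 4. Zm00001d041173, at rank 8, was at 2.62, 4.21 and 83.9 TPM in the mutants, against 0.166, 0 and 1.67 TPM in the wild types. Mutant 4 was 50.4 and 24.6 times the mean of the other mutants in these genes.

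Among the members, a median of 72.5% of the variance of log2(TPM + 0.5) over the 6 samples lay between genotypes, from 24.1% to 94.5%. The median was 67.4% among the other genes that met the conditions and 27.3% among all genes at this mutant level. The members were chosen for separated genotypes in these same values, so a share above that of all genes follows from the choice. The share was under 50% in 6 members and over 90% in 4, Zm00001d029654, Zm00001d020101, Zm00001d018229 and Zm00001d035041, which were named after their values were seen. For Zm00001d035041 the runs of mutant 3 differed widely, as described below, so its share is uncertain. Zm00001d029654 was at 42.9, 16.3 and 21.8 TPM in mutants 2, 3 and 4, against 1.52, 2.11 and 1.77 TPM in wild types 2, 3 and 4. Zm00001d020101 was at 8.38, 3.56 and 5.36 TPM in the mutants, against 0.265, 0.437 and 0.476 TPM in the wild types. In both the wild types were close together, and the lowest mutant was 7.74 and 7.48 times the highest wild type. Zm00001d007199 had the most even mutant values, at 15.9, 13.8 and 15.6 TPM, against 0.345, 1.98 and 2.82 TPM in the wild types. The multiple of the highest mutant over the mean of the others was next smallest in Zm00001d045391, Zm00001d033489, Zm00001d045390 and Zm00001d038993. It does not register a single low mutant, and Zm00001d038993 was at 8.34, 33.8 and 32.8 TPM in mutants 2, 3 and 4, so its mutants were not even.

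The distance between the genotypes was narrow for some members. The lowest mutant was at least 2 times the highest wild type in 62 of the 100, at least 5 times in 20, and under 1.2 times in 13, with the 4 genes at 0 in every wild type counted as wide. Lack of overlap was a condition of the rule and the ratio set the rank, so these counts follow in part from the choice. Shares for other genes are not given here. The widest distances among genes detected in a wild type were those of Zm00001d041984, Zm00001d041987, Zm00001d004729, Zm00001d037677 and Zm00001d004721, from 8.27 to 12.2 times. A highest mutant under 2 times the mean of the others, together with a lowest mutant at least 2 times the highest wild type, was found in 16 members, of which 6 averaged at least 100 TPM in the mutants. These were Zm00001d022461, Zm00001d017121, Zm00001d007765, which is named after its values were seen, and the neighbouring IDs Zm00001d045390 to Zm00001d045392. In each of these 6 genes wild type 3 was more than 2 times both other wild types, so their wild types were not even.

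Few members were off in the wild type. No count was recorded in any wild type for 4 members, no count in at least 1 wild type for 40, and at most 3 counts in every wild type for 16. A low wild-type level raises the ratio that set the rank, so these counts follow in part from the choice. For the counts of 40 and 16, shares of other genes are not given here. The 4 were Zm00001d036125, Zm00001d035394, Zm00001d042574 and Zm00001d004728, and no other gene in the table with a mutant mean of at least 2 TPM and counts in every mutant had 0 counts in all wild types. Zm00001d036125 had 174, 30 and 668 counts in mutants 2, 3 and 4. Its mean CPM over the mutants was at least 98.6-fold higher than a floor of 3 counts per wild-type library. Zm00001d004728 had 20, 21 and 91 counts, with a mean at least 15.1-fold higher, and Zm00001d035394 had 6, 9 and 64 counts, with a mean at least 8.99-fold higher. Zm00001d042574 had 4, 1 and 21 counts, with a mean at least 2.94-fold higher. Mutant 4 was the highest mutant in all 4 genes, so these ratios are no lower limit for each mutant. In Zm00001d042574 the mutants were at 0.135, 0.0367 and 0.701 CPM, so mutant 3, with a single count, lay under the floor of 0.0989 CPM. Without wild type 3 the number at 0 became 8, and without wild type 4 it became 12.

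**Figure D4:**
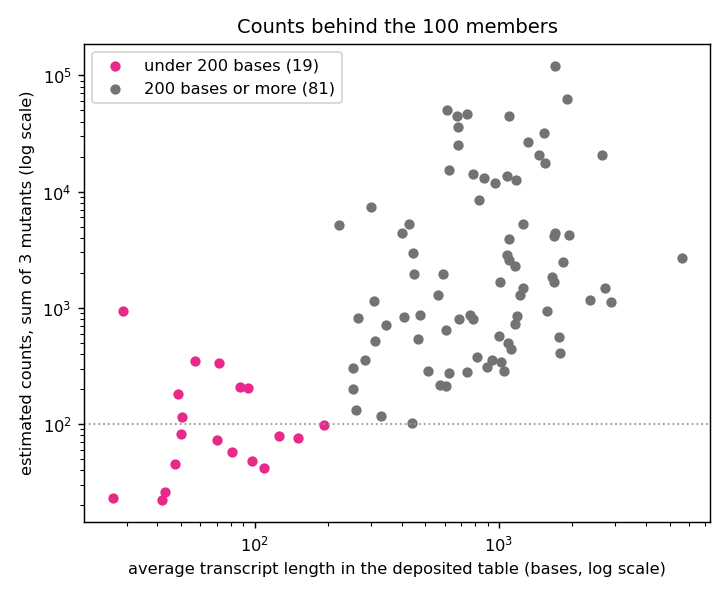
Average transcript length in the deposited table against estimated counts summed over the 3 mutants, 1 point per member on log axes, with lengths under 200 bases in pink and the dotted line at 100 counts. All 12 members under 100 counts are among the 19 short ones.

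Part of the list rests on few counts, because TPM divides by length. The labels and headers do not say how the deposited length was computed. Some values lie under the read length of 150 bases, so they may not be full transcript lengths, and both length and TPM of the shortest members are uncertain. The average transcript length in the deposited table was under 200 bases for 19 members, 19%, against 2.25% of the other genes that met the conditions and 4.26% of all genes at this mutant level. These 19 members had a median of 79 counts summed over the mutants, and the other 81 had a median of 1485. All 12 members with under 100 such counts were short. Zm00001d044747 was at 234, 202 and 745 TPM in mutants 2, 3 and 4, against 46.5, 91.4 and 17 TPM in the wild types, with 193, 155 and 597 counts behind the mutant values and a deposited length of 29 bases. Zm00001d037677, at rank 7, had 19, 9 and 54 counts in the mutants and 1 count in the wild types together, at a deposited length of 50.1 bases.

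The median absolute log2 difference between runs, over 600 pairs of member and sample, was 0.13, and 44 pairs in 24 members differed by more than 2-fold. Mutants lay above wild types without overlap in run 1 for 91 members, in run 2 for 90 and in both for 81. Among all genes at this mutant level the shares were 16.3% in run 1, 16.3% in run 2 and 10.6% in both, but the members were chosen for no overlap in the mean of these runs, so nothing is read from their counts. In CPM scaled by TMM, which does not use length, 96 members had no overlap, against 11% of all genes at this mutant level, and nothing is read from this count either. The same mutant was highest in both runs for 97 members. Not all large run differences were in short genes. Zm00001d035041, with a length of 2715 bases, was at 12 TPM in run 1 and 0.681 TPM in run 2 of mutant 3. Zm00001d029667, with a length of 1217 bases, was listed at 0 in run 1 and at 15.4 TPM in run 2 of mutant 4. Both were singled out after their values were seen, their levels are uncertain, and whether their reads are shared with a similar gene was not tested.

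**Figure D5:**
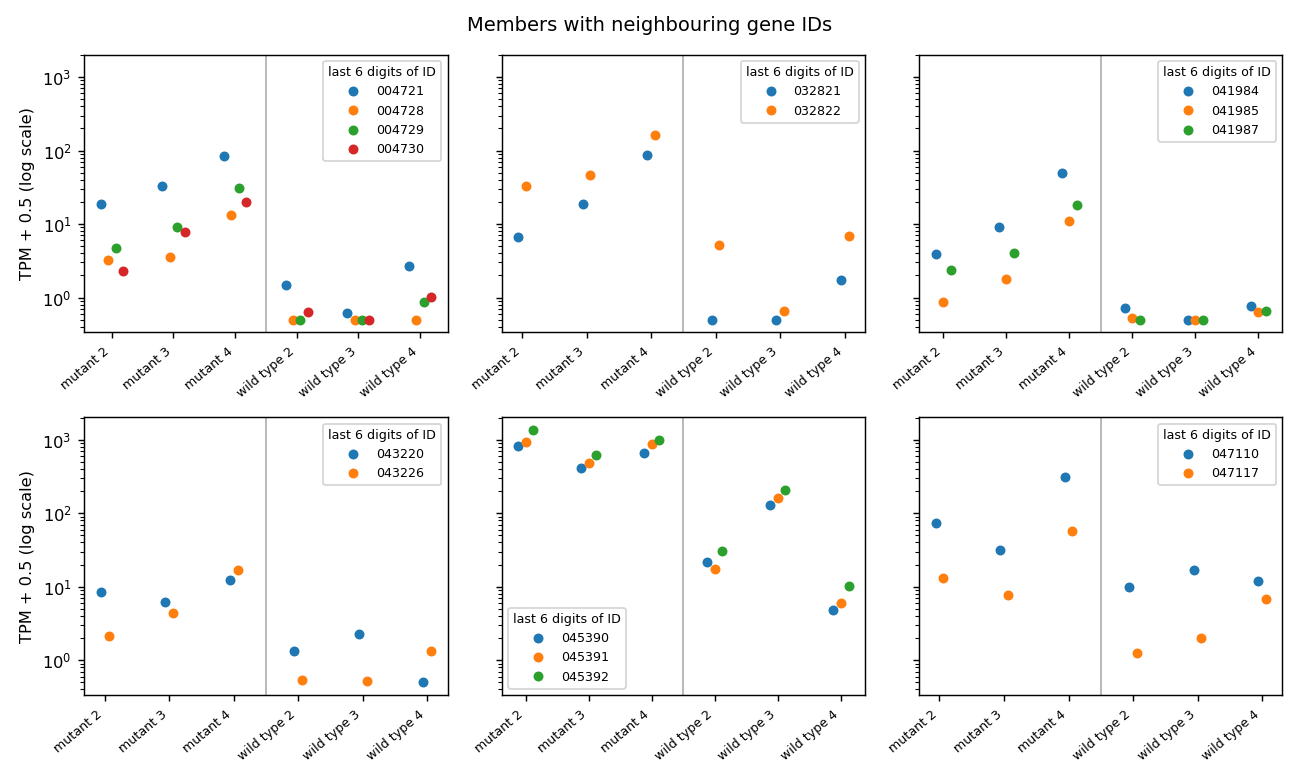
TPM + 0.5 on a log axis in the 6 samples for the 16 members whose ID number lies within 10 of another member, 1 panel per group and 1 colour per gene. In the group 045390 to 045392 all 3 genes share the order of samples, with wild type 3 highest among wild types, and in the groups from 004721 and 041984 mutant 4 is highest.

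Some members carried neighbouring ID numbers. Within 10 ID numbers of another member lay 16 members, in 6 groups, and 10 of them stood next to another member. How often other genes lie this close to each other is not given here, so nothing is read from these counts. The group of highest level was Zm00001d045390, Zm00001d045391 and Zm00001d045392. Zm00001d045390 was at 819, 418 and 666 TPM in mutants 2, 3 and 4, against 21, 130 and 4.27 TPM in wild types 2, 3 and 4. Zm00001d045391 was at 922, 478 and 862 TPM in the mutants, against 16.8, 159 and 5.52 TPM in the wild types. Zm00001d045392 was at 1362, 618 and 987 TPM in the mutants, against 29.8, 207 and 9.61 TPM in the wild types. The order of the 6 samples was the same in all 3 genes. The ID just before them, Zm00001d045389, averaged 55.2 TPM in both genotypes, and the ID just after, Zm00001d045393, averaged 19 TPM in the mutants and 7.51 TPM in the wild types.

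The group with the most members was Zm00001d004721, Zm00001d004728, Zm00001d004729 and Zm00001d004730. Zm00001d004721 was at 18.1, 32.3 and 84.7 TPM in mutants 2, 3 and 4, against 0.986, 0.109 and 2.18 TPM in wild types 2, 3 and 4. Zm00001d004729 was at 4.22, 8.65 and 30.5 TPM in the mutants, against 0, 0 and 0.379 TPM in the wild types. All 4 genes had mutant 4 highest and mutant 2 lowest among mutants, and Zm00001d004731, the next ID, averaged 8.45 TPM in the mutants and 6.77 TPM in the wild types. Zm00001d041984, Zm00001d041985 and Zm00001d041987 were likewise highest in mutant 4, at 48.5, 10.5 and 17.5 TPM, with wild-type means of 0.168, 0.0523 and 0.0531 TPM. Zm00001d041986, between them, had 0 TPM in every sample. Zm00001d032822, next to Zm00001d032821, was at 32.4, 46 and 163 TPM in the mutants, against 4.61, 0.151 and 6.33 TPM in the wild types. In both groups mutant 4 was again the highest sample. The other pairs were Zm00001d043220 with Zm00001d043226 and Zm00001d047110 with Zm00001d047117, all 4 highest in mutant 4.

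Genes near the members were described in the same way. Among 769 non-members at this mutant level within 10 ID numbers of a member, all mutants lay above all wild types in 19.4%, against 16.4% of all 20024 non-members at this level. The median log2 ratio was 0.22 for the nearby genes and 0.15 for all non-members at this level, and the difference was not tested. Neighbouring members may be similar copies whose reads the counting could divide, so their separate levels are uncertain, and this was not tested.

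The deposited average transcript length was compared between genotypes as well. It is not independent of the rule, since TPM is computed with length. In limma's test on log2 length over 21744 genes, 0 of the 100 members passed an adjusted p of 0.05, where 0.0046% of all genes did, and the lowest adjusted p among members was 0.56. At an unadjusted p under 0.05 there were 4 members, Zm00001d029654, Zm00001d044747, Zm00001d035041 and Zm00001d021779, named after their values were seen, against 4.03% of all genes tested, so the members' share is that of the background. In the 4 members without a count in any wild type, all wild types carried 1 identical length, such as 474.8 bases for Zm00001d036125. Their log2 changes were at most 3.1e-06, so the test could not show a difference there. Zm00001d032821 likewise had 263.9 bases in wild types 2 and 3, both at 0 counts. Length was greater in the mutants for 94 members, those 4 among them, and for 84.3% of all genes tested, with medians of 0.01 on the log2 scale for both. Lengths also moved together within a library. The commonest difference from wild type 2 was −0.9, 5.4 and 6.2 bases in mutants 2, 3 and 4, against 3.1 bases in wild type 3 and −16.7 bases in wild type 4, and 44.3% of all genes tested lay within 1 base of these values in every library. Wild type 4 had the shortest value in 77 members and in 75.5% of all genes tested. Without wild type 4, length was greater in the mutants for 93 members and for 78.7% of all genes tested. The direction is therefore not read as a difference in the members' transcripts. No difference in length was detected in the members with these samples. For members at 0 counts in a wild type the test was limited or could not decide. At least 1 wild type was at 0 counts in 40 members.

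Tests of expression across all genes put the list in context only, since the same contrast chose the members. With edgeR's quasi-likelihood test, 0 of 22772 genes passed an adjusted p of 0.05, a background of 0%, and hence 0 of the 84 members it tested, with a lowest adjusted p of 0.27. The other 16 members did not pass its filter on low counts. At an unadjusted p under 0.05 edgeR gave 81 members, where 6.92% of all genes were that low and higher in the mutant. DESeq2 on the same samples called 61 of the 89 members to which it gave an adjusted p, where 1.93% of all genes were called higher in the mutant. Nothing about the members is read from these counts.

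The authors' deposited table of transcripts, limited to adjusted p of up to 0.05, lists 7216 transcripts of 6204 genes. Of the 100 members, 92 had a listed transcript, against 55.1% of all genes that met the conditions and 28.6% of all genes at this mutant level. The same contrast chose the members, so nothing is read from this count. All 107 transcripts of members in the authors' deposited table had a negative log2 fold change. That table does not name its numerator, but 91.1% of 7196 transcripts in the authors' deposited table had the sign opposite to mutant over wild type in TPM, so a negative value is read as higher in the mutant. For Zm00001d022461 the authors' deposited table gives −4.68 (SE 0.466), and for Zm00001d012407 it lists 5 transcripts, from −2.85 to −13.3. The mean normalized signal listed for Zm00001d022461, 1183, lies nearer the mean count per run than the mean per sample. The runs of a sample may thus have entered as separate libraries, which the header does not state. The SE and the adjusted p may then count runs as replicates, beyond the 3 samples per genotype. The table comes from the same libraries, so it adds no independent measurement.

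The mirrored rule gave the 100 genes most lowered in the mutants. Their log2 ratios, wild type over mutant, ran from 1.3 to 3.72 with a median of 1.59, and 1142 genes met the mirrored conditions. The highest wild type was at least 2 times the mean of the other wild types in 28 of these 100 genes, where the highest mutant was so in 77 of the members. The members end at a log2 ratio of 2.52 and the mirrored list at 1.3, so these counts come from unlike ratios. TPM without further scaling also put the median log2 ratio of all tested genes at 0.14, mutant over wild type. The difference between the lists was not tested.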

How the data were processed

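Groups follow the genotype given in each title. The members and lists were chosen with earlier results of these data known. The deposited gene table holds, per run, TPM, estimated counts that need not be whole, and average transcript length in bases, per the file headers. A second deposited table, per its header, holds the authors' comparison per transcript: mean normalized signal, log2 fold change, its SE, the Wald score, and p-values. Per the submitters' processing notes the tools were STAR, Salmon and DESeq2; roles and genome build: not given in the sources used here. Unused per-sample columns: 0.

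TPM was averaged over both runs, and counts were summed and rounded. All genes were tested with edgeR 4.0.16 (quasi-likelihood, TMM, filter by group) in R 4.3.3, testing both directions, with Benjamini-Hochberg adjustment at 0.05; DESeq2 1.42.0 was an alternative. Length was tested with limma 3.58.1 over genes with a mean of at least 1 TPM. An exact permutation test of 3 against 3 samples cannot go under p = 0.1.

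The count and length tests were first run on simulated data with planted changes.

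Members named are the first 10 by rank, the 10 most abundant, those off in the wild type, ID neighbours within 10, the 5 most and 5 least carried by 1 mutant, the 5 with the widest distance, and the ranks beside the limit. Others were named after their values were seen, where a small count or a single feature called for it. Alternatives are in the closing section. No sequence was used.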

Additional observations from a re-analysis of the deposited data

How the results depend on the processing

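The number of the 100 members chosen again ranged from 56 to 84 over the samples left out: 56 when wild type 3 was dropped, 60 for mutant 2, 65 for mutant 4, and 77 to 84 for the others. It was 73 to 100 with other pseudocounts, TPM minimums, runs or scaled CPM. Limits of 200 bases and of 10 counts in every mutant, both added after the data were seen, could only remove members, and removed 19 and 16. The median log2 ratio of the members ranged from 2.6 to 3.64 over the samples left out and from 2.4 to 3.65 over the other alternatives. TPM without further scaling put the median of all tested genes at 0.14 and TMM-scaled CPM at 0.00, a shift of 0.13, and genes that met the rule's conditions numbered 2138 in scaled CPM, against 3385 in TPM. The 4 members off in the wild type became 16 at up to 3 counts per wild type, 7 at TPM under 0.1, and 5 to 12 when a wild type was left out (8 without wild type 3, 12 without wild type 4). The 39 members named by the rule kept their direction in all 468 values recomputed for them, which their choice left little room to change; members named after their values were seen were not recomputed. edgeR's count of 0 became 660 with DESeq2 and was 0 in its other alternatives (0 to 0 over samples left out), as was the count of members whose length differed. With the replicate block edgeR called 0 genes and gave 1790 at an unadjusted p under 0.05, where 2784 passed without it. Same-numbered samples' deviations had correlations of 0.21, −0.31 and −0.25, so the numbers are not taken to pair the samples, and only mutant 2 was closest to the wild type of its own number. Leaving out samples leaves fewer values; otherwise the cause was not tested. Members under 200 bases had fewer counts, with a median of 79 summed over the mutants against 1485 in the other members.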
